A study of Mus musculus with 12 samples.

Results

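Hmox1 and 9 further genes of the NRF2 antioxidant pathway were followed in SCC7 cells, a mouse squamous carcinoma line labelled wild type, that had been kept in media taken from macrophages. The members are the regulators Nfe2l2, Keap1 and Bach1 and the target genes Hmox1, Nqo1, Gclc, Gclm, Txnrd1, Srxn1 and Gsr. The rule that chose them was a place in the pathway as a regulator or a target gene. They are 10 of the 55487 genes in the count table, and all 10 were among the 14509 genes with enough counts to test. Macrophages grown from bone marrow had spent 24 h in plain culture medium (M0 CM), in interferon-gamma at 20 ng/ml (M1 CM), in interleukin-4 at 20 ng/ml (M2 CM) or in medium holding 75% of SCC7-conditioned medium (TAM CM), and SCC7 cells then spent 24 h in the resulting conditioned medium. Each medium had 3 mRNA sequencing libraries, 12 in all. In M1 CM, M2 CM and TAM CM, products of the macrophages and remains of the cytokine or of the SCC7 medium they had received cannot be told apart. Whether the 3 libraries of a medium are separate cultures is not stated. The p-values therefore rest on the spread among these samples alone, and that spread may be technical.

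NRF2, the product of Nfe2l2, is a transcription factor that turns on genes for glutathione synthesis, thioredoxin recycling, quinone reduction and heme breakdown. KEAP1 holds NRF2 in the cytoplasm and hands it to a ubiquitin ligase, and oxidants or electrophiles that modify KEAP1 let NRF2 accumulate, so that NRF2 activity is set largely at the protein level. BACH1 is a heme-binding repressor that occupies the same antioxidant response elements, above all at Hmox1. Tumor cells often rely on this program to withstand oxidative stress.

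SCC7 cells in TAM CM held far more Hmox1 mRNA than cells in M0 CM, 17.4-fold, and cells in M1 CM held 2.62-fold more. In TAM CM the glutathione synthesis genes Gclc and Gclm, the thioredoxin reductase gene Txnrd1 and the sulfiredoxin gene Srxn1 rose as well, by 1.72- to 2.66-fold, while Keap1 fell by 0.81 on the log2 scale. Nfe2l2 mRNA itself differed little between the media, and Nqo1, a classical NRF2 target, did not rise in any of the 3 comparisons with M0 CM. In M2 CM Nqo1 fell and Gclm rose, and Hmox1 was not called against M0 CM. Levels are CPM, that is, counts scaled to library size and composition (TMM), and fold changes with standard errors (SE) come from edgeR's quasi-likelihood test over all 14509 genes with Benjamini-Hochberg adjustment, a gene being called at an adjusted p under 0.05.

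The 12 libraries held 18996937 to 22596630 counts, so that 1 CPM stood for about 20.8 counts. Of 16 macrophage markers, 4 had no counts in any library (Tyrobp, C1qa, C1qb and C1qc) and 11 stayed under 1 CPM everywhere, among them Ptprc, Adgre1, Csf1r and Itgam. Their summed level was 23.5 to 24.6 CPM in M0 CM and 22.9 to 25.2 CPM in M2 CM, and reached 34.9 to 40.9 CPM in M1 CM and 41.8 to 51.1 CPM in TAM CM, most of it from Cd14. Of 10 squamous or epithelial markers, Krt6a and Epcam had no counts and Krt5, Krt14 and Cdh1 stayed under 1 CPM, so the defining keratins of a squamous cell were at or near 0. The summed level of that list was 361 to 391 CPM in M0 CM and 679 to 758 CPM in M2 CM, against 167 to 171 CPM in M1 CM and 91.1 to 101 CPM in TAM CM. Most of that sum came from Krt8 and Krt18 in every group. Of 8 fibroblast markers Lum and Thy1 had no counts, and the sum was 2505 to 2651 CPM in M0 CM, against 1444 to 1542 CPM in M1 CM, 1471 to 1496 CPM in M2 CM and 1148 to 1203 CPM in TAM CM. Col1a1, Col1a2, Col3a1 and Pdgfrb of that list fell in TAM CM, while Dcn rose 5.95-fold and Pdgfra 1.35-fold. The part of these 3 lists in the results on the members was not tested. A label of the third M2 CM library names melanoma as its cell type. In that library as in the others 6 of 7 melanocyte markers were under 1 CPM, and without it the comparison of M2 CM with M0 CM again called 4 members higher and 4 lower.

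In TAM CM against M0 CM 6 of the 10 members rose, where 35.1% of all tested genes were called higher, and 1 fell, where 34.9% were called lower. At least 1.5-fold changes were seen for 5 members upward, beside 17.6% of all genes, and for 1 downward, beside 18.3%. The median log2 fold change of the members was 0.58, and over all tested genes it was 0.00. The groups did not overlap for 7 members, beside 73.1% of all genes.

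In M1 CM 5 members rose, where 27.7% of all genes were called higher, and 0 fell, where 25.6% were called lower. By edgeR at an unadjusted p under 0.05 the number lower was also 0, as it was with DESeq2. The members' median log2 fold change was 0.19 against 0.01 over all genes, and 6 members had groups that did not overlap, beside 58.8% of all genes. In M2 CM 4 members rose, where 21.0% of all genes were called higher, and 4 fell, where 18.5% were called lower. Its members' median was 0.01, beside -0.00 over all genes, and 8 members had groups that did not overlap, beside 49.5%. These 3 comparisons share the M0 CM libraries.

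**Figure D1:**
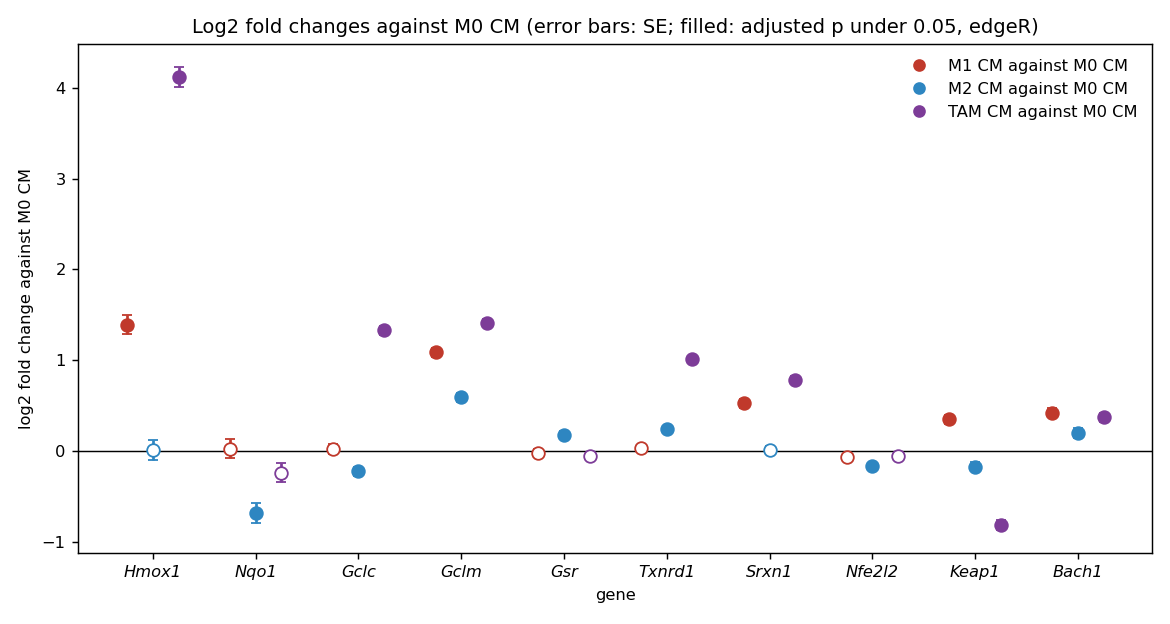
Log2 fold change of each of the 10 genes in M1 CM, M2 CM and TAM CM against M0 CM, with bars for the SE and filled points for an edgeR adjusted p under 0.05. Hmox1 in TAM CM lies at 4.12, and Keap1 in TAM CM lies lowest, at -0.81.

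Hmox1 encodes heme oxygenase-1, which breaks heme down to biliverdin, carbon monoxide and iron. Hmox1 stood at 114, 102 and 107 CPM in the M0 CM libraries, 254, 304 and 290.3 CPM in M1 CM, 115, 101 and 109.8 CPM in M2 CM and 2038, 1642 and 1929 CPM in TAM CM. All TAM CM libraries stood above all M1 CM libraries, and these above all others, while the M0 CM and M2 CM libraries overlapped. The group means were 1869.9 ± 204 CPM in TAM CM, 283 ± 26.2 in M1 CM, 108 ± 5.91 in M0 CM and 108 ± 7.16 in M2 CM (SD, n = 3 each). By edgeR, Hmox1 rose in TAM CM against M0 CM (log2 fold change 4.12, SE 0.11, adjusted p = 5.35e-10) and in M1 CM against M0 CM (log2 fold change 1.39, SE 0.10, adjusted p = 3.23e-06). TAM CM also exceeded M1 CM, by 6.61-fold (edgeR log2 fold change 2.73, SE 0.10, adjusted p = 8.34e-09). For M2 CM against M0 CM the 95% interval of the log2 fold change ran from -0.24 to 0.26, with an edgeR adjusted p of 0.963. Ranked by log2 fold change among the 14509 genes, Hmox1 stood at place 125 in TAM CM and at place 627 in M1 CM. In bulk RNA, a change in the number of cells that express a gene and a change in RNA per cell cannot be told apart.

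**Figure D2:**
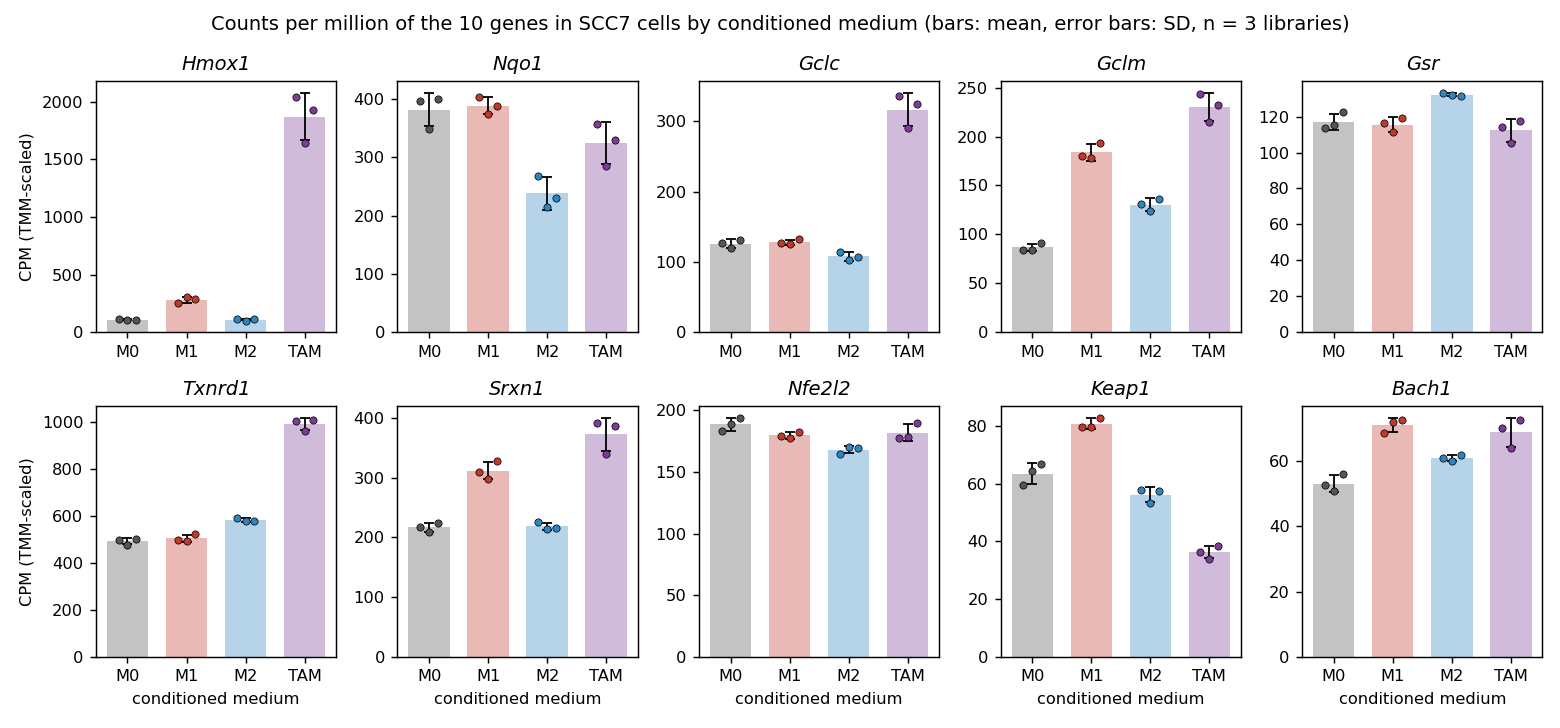
CPM of the 10 genes by medium, each gene on its own axis, with points for the 12 libraries, bars for the mean and error bars for the SD (n = 3). For Hmox1 the TAM CM points lie from 1642 to 2038 CPM, above every other library.

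Gclc and Gclm encode the catalytic and the modifier subunit of glutamate-cysteine ligase, the enzyme that starts glutathione synthesis. Gclc stood at 127, 119.7 and 132 CPM in the M0 CM libraries, 127, 125 and 132 CPM in M1 CM, 114, 102 and 107 CPM in M2 CM and 335, 290.3 and 325 CPM in TAM CM. Only the TAM CM libraries stood apart upward, and the M2 CM libraries were all below those of M0 CM. Gclc rose in TAM CM (edgeR log2 fold change 1.33, SE 0.05, adjusted p = 3.85e-16) and fell in M2 CM (edgeR log2 fold change -0.22, SE 0.05, adjusted p = 0.00163). In M1 CM its 95% interval ran from -0.08 to 0.13. Gclm stood at 84.3, 84.4 and 91.2 CPM in the M0 CM libraries, 179.9, 178 and 194 CPM in M1 CM, 131, 124 and 136 CPM in M2 CM and 244, 215 and 232 CPM in TAM CM. The 4 groups of Gclm did not overlap, in the order TAM CM, M1 CM, M2 CM and M0 CM from the highest down. Against M0 CM the edgeR log2 fold change of Gclm was 1.41 in TAM CM (SE 0.05, adjusted p = 3.76e-22), 1.09 in M1 CM (SE 0.05, adjusted p = 1.07e-18) and 0.59 in M2 CM (SE 0.05, adjusted p = 1.26e-11). The modifier subunit was thus called higher in all 3 media and the catalytic subunit in TAM CM alone among these 3 comparisons. An antisense gene, Gm17494, shares 296 exon bases with Gclm and lay between 0.964 and 1.94 CPM on average per group, and reads of the pair cannot be told apart without strand. A pseudogene on the same strand, Gm6061, shares 244 exon bases with Gclm and averaged 0 CPM in every group. Strand cannot tell reads of that pair apart.

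Gsr encodes glutathione reductase, which returns oxidised glutathione to its reduced form with NADPH. Gsr stood at 114, 115 and 122 CPM in the M0 CM libraries, 116, 111 and 119 CPM in M1 CM, 133, 132 and 131 CPM in M2 CM and 114, 105 and 118 CPM in TAM CM. The M2 CM libraries were the highest and the other 3 groups overlapped. Gsr rose in M2 CM (edgeR log2 fold change 0.18, SE 0.04, adjusted p = 0.00028), and in TAM CM its 95% interval ran from -0.14 to 0.02. Its highest group mean was 1.18 times its lowest.

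Txnrd1 encodes the cytosolic thioredoxin reductase, and Srxn1 encodes sulfiredoxin, which restores overoxidised peroxiredoxins. Txnrd1 stood at 499, 476 and 503 CPM in the M0 CM libraries, 496, 495 and 522 CPM in M1 CM, 591, 576 and 580.1 CPM in M2 CM and 1005, 961 and 1009 CPM in TAM CM. The TAM CM libraries were the highest and those of M2 CM came next, with M1 CM and M0 CM overlapping. Txnrd1 rose in TAM CM (edgeR log2 fold change 1.01, SE 0.03, adjusted p = 3.34e-32) and by less in M2 CM (edgeR log2 fold change 0.24, SE 0.03, adjusted p = 8.11e-09). Srxn1 stood at 218, 209 and 223 CPM in the M0 CM libraries, 309, 298 and 327 CPM in M1 CM, 225, 214 and 216 CPM in M2 CM and 391, 339.6 and 386 CPM in TAM CM. Here M1 CM and TAM CM stood above M0 CM and M2 CM, with TAM CM above M1 CM. Srxn1 rose in TAM CM (edgeR log2 fold change 0.78, SE 0.05, adjusted p = 3.83e-13) and in M1 CM (edgeR log2 fold change 0.52, SE 0.05, adjusted p = 1.14e-09). In M2 CM the 95% interval of its log2 fold change ran from -0.08 to 0.11.

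The promoters of Srxn1, Gclm and Txnrd1 are shown because these 3 targets rose in TAM CM and RefSeq windows of them (build GRCm38.p6) hold letters of the antioxidant response element. Of the 10 members 7 had windows, 9 in all, each reaching from 250 bases before a start to 50 after it. Hmox1, Gclc and Gsr had no entry. The core letters TGACNNNGC were sought on both strands, and a second form, TGAGTCAGC, was added after the sequences had been seen. The core was found in 4 of the 9 windows and in 12.4% of all 32851 windows, and the second form in 0.414% of all windows. The forms share letters and can overlap in a longer stretch, which they did not do in these windows. The lines below give the 250 bases before the start, 5′ to 3′ on the gene's strand, with matches in capitals.
Srxn1, chr2:152105274-152105523, + strand: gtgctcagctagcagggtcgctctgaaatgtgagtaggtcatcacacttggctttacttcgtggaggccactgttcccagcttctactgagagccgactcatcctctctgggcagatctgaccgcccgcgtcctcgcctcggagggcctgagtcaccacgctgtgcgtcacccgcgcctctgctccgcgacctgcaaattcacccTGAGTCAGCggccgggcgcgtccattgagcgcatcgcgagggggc
Gclm, chr3:122245307-122245556, + strand: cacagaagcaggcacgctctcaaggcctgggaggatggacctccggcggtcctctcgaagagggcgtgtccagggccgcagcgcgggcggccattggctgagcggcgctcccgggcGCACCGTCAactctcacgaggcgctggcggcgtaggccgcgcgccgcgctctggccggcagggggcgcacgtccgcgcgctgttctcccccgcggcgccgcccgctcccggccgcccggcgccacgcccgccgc
Txnrd1, the second of its listed starts, chr10:82858956-82859205, + strand: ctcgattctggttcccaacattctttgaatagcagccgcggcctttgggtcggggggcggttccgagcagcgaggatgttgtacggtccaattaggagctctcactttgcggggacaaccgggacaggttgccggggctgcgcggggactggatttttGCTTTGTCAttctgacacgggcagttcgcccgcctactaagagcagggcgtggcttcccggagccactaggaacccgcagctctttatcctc
Srxn1 held TGAGTCAGC at positions -45 to -37 from the start, and a core match on the other strand at 29 to 37, past the bases shown. In Gclm the core match lay on the other strand at -134 to -126, and in Txnrd1 on the other strand at -92 to -84. The Nfe2l2 window held the core at -240 to -232. The windows of Nqo1, Keap1 and Bach1 held no match, and neither did those at the remaining listed starts of Txnrd1. A match describes these letters and not a bound site.

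Nqo1 encodes a quinone reductase that uses NADH or NADPH to reduce quinones without leaving a radical. Nqo1 stood at 396, 349 and 401 CPM in the M0 CM libraries, 404, 375 and 388 CPM in M1 CM, 269, 216 and 229.8 CPM in M2 CM and 357, 286 and 330.3 CPM in TAM CM. The M2 CM libraries were the lowest, and those of TAM CM overlapped M0 CM while lying below M1 CM. Nqo1 fell in M2 CM (edgeR log2 fold change -0.68, SE 0.11, adjusted p = 0.00082). In TAM CM against M0 CM it was not called (edgeR log2 fold change -0.24, SE 0.10, adjusted p = 0.0707, 95% interval -0.48 to 0.00). It was called lower in other fits, each with a lower level in TAM CM. DESeq2 gave an adjusted p of 0.0368 and edgeR with unscaled library sizes gave 0.0169. Without the second M0 CM library edgeR gave 0.0457, and without the first TAM CM library it gave 0.0382. With a block for the replicate number edgeR gave 2.06e-06.

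Among the regulators, Nfe2l2 mRNA had the narrowest range of all 10 members, its highest group mean being 1.12 times its lowest. Nfe2l2 stood at 183, 189 and 194 CPM in the M0 CM libraries, 179, 177 and 183 CPM in M1 CM, 165, 170.2 and 169.6 CPM in M2 CM and 177, 179 and 189.5 CPM in TAM CM. The M2 CM libraries were the lowest, and those of TAM CM overlapped M0 CM, while those of M1 CM all lay below M0 CM. Nfe2l2 fell in M2 CM (edgeR log2 fold change -0.17, SE 0.03, adjusted p = 0.000108). In TAM CM it was not called (95% interval -0.12 to 0.02, edgeR adjusted p = 0.168), nor in M1 CM (95% interval -0.14 to 0.00, edgeR adjusted p = 0.0892). With library sizes left unscaled, edgeR called Nfe2l2 lower in both, at adjusted p = 0.00012 in TAM CM and 0.000626 in M1 CM.

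Keap1 stood at 59.6, 64.3 and 66.7 CPM in the M0 CM libraries, 79.8, 79.7 and 82.9 CPM in M1 CM, 57.8, 53.3 and 57.6 CPM in M2 CM and 36.4, 34 and 38.2 CPM in TAM CM. The groups of Keap1, the gene of NRF2's cytoplasmic inhibitor, did not overlap, with M1 CM highest and TAM CM lowest. Keap1 fell in TAM CM (edgeR log2 fold change -0.81, SE 0.05, adjusted p = 6.82e-19) and slightly in M2 CM (edgeR log2 fold change -0.17, SE 0.05, adjusted p = 0.00459), and rose in M1 CM (edgeR log2 fold change 0.35, SE 0.05, adjusted p = 2.93e-08). Its antisense neighbour Gm16754 shares 510 exon bases with it and averaged 0.758 to 1.70 CPM per group. Bach1 stood at 52.5, 50.8 and 56 CPM in the M0 CM libraries, 68.7, 71.9 and 72.8 CPM in M1 CM, 61, 59.9 and 61.9 CPM in M2 CM and 70.3, 64 and 72.5 CPM in TAM CM. Bach1, the gene of the repressor, was lowest in M0 CM, and its M1 CM and TAM CM libraries overlapped. It rose in M1 CM (edgeR log2 fold change 0.42, SE 0.05, adjusted p = 3.11e-10), in TAM CM (edgeR log2 fold change 0.37, SE 0.05, adjusted p = 3.78e-09) and in M2 CM (edgeR log2 fold change 0.20, SE 0.05, adjusted p = 0.00111).

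Set directly against M1 CM, TAM CM held more of 5 members, where 32.8% of all genes were called higher, and less of 1, Keap1, where 34.4% were called lower. The groups did not overlap for 7 members, beside 69.5% of all genes. Those higher were Hmox1, Gclc (log2 fold change 1.31), Txnrd1 (0.98), Gclm (0.32) and Srxn1 (0.26), and Keap1 stood at -1.16. Nqo1, at -0.26, missed the threshold (edgeR adjusted p = 0.0508). It passed with DESeq2 (0.0266) and in edgeR with unscaled library sizes (0.0317), a stricter filter (0.0457) or the 2 groups alone (0.0226). It also passed in edgeR without the first TAM CM library (0.029) or with a block for the replicate number (3.61e-07). Against M2 CM, TAM CM held more of 8 members, beside 34.3% of all genes, and less of Gsr and Keap1, beside 34.1%, and all 10 had groups that did not overlap, beside 71.3%. The smallest of these, Nfe2l2 at 0.11, was lost without the third TAM CM library (edgeR adjusted p = 0.0602) and with unscaled library sizes (edgeR adjusted p = 0.0647). M2 CM against M1 CM gave 2 members higher, Txnrd1 and Gsr, beside 27.8% of all genes, and 8 lower, beside 28.4%, and all 10 had groups that did not overlap, beside 59.8%. Among the 8, Hmox1 fell by 1.38 and Nqo1 fell by 0.71 on the log2 scale, and the call of Nfe2l2 (-0.10) was lost without the first M2 CM library (edgeR adjusted p = 0.0847).

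Levels of different genes were compared as CPM per kilobase of exon. In M0 CM, Nqo1 was the most abundant member, at 246 ± 18.5 CPM per kilobase (SD, n = 3), followed by Srxn1 at 76.8 ± 2.63, Txnrd1 at 69.5 ± 2.05 and Hmox1 at 61.4 ± 3.38. In TAM CM, Hmox1 led at 1068 ± 117 CPM per kilobase and Nqo1 followed at 209 ± 23.1. Nfe2l2, at 47.9 ± 1.78 CPM per kilobase in TAM CM, stood above the targets Gsr at 40.8 ± 2.30 and Gclm at 36.6 ± 2.29. Bach1 at 11.2 ± 0.717 and Keap1 at 7.72 ± 0.451 were the lowest members there. The exon length counts every annotated exon, so that a gene with exons not used in these cells is set too low.

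**Figure D3:**
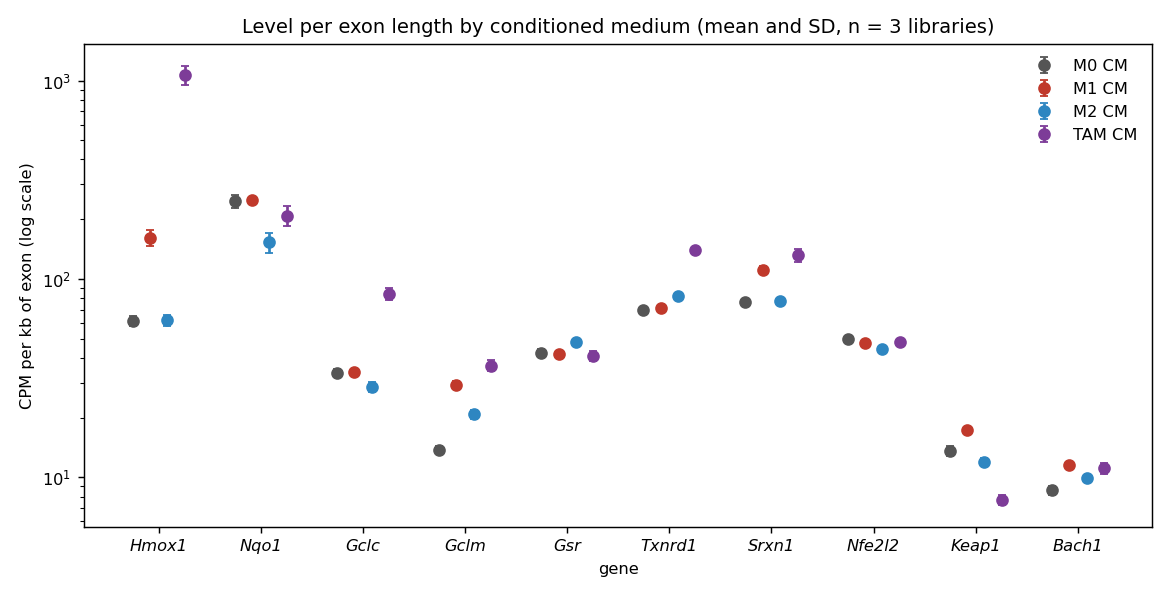
Mean CPM per kilobase of exon of the 10 genes in each medium, with the SD over 3 libraries, on a log axis. Hmox1 moves from 61.4 in M0 CM to the top of the plot in TAM CM, while Nqo1 stays between 153 and 250.5.

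Further genes of the pathway were read from lists by role. Their counts stand beside shares over all tested genes of 35.1% higher and 34.9% lower in TAM CM, 27.7% and 25.6% in M1 CM, and 21.0% and 18.5% in M2 CM. Each count of 0 given for a list in edgeR was also 0 at an unadjusted p under 0.05 and with DESeq2. Among 10 tested partners and regulators, 6 rose and 3 fell in TAM CM, with a median log2 fold change of 1.01. The small MAF proteins are the DNA-binding partners of NRF2 and BACH1. Mafk rose from 29.5 ± 0.963 to 103 ± 1.79 CPM (edgeR adjusted p = 6.12e-34), Mafg from 95 ± 5.45 to 203 ± 1.80 and Maff from 32 ± 1.31 to 90.7 ± 5.10. Nfe2l1, a relative of NRF2 that controls proteasome genes, rose from 323 ± 4.62 to 929 ± 7.32 CPM (edgeR adjusted p = 1.69e-36). In M1 CM 5 genes of this list rose and 2 fell (median 0.41), and in M2 CM 3 rose and 0 fell (median 0.04).

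In the glutathione list of 11 tested genes, 7 rose and 3 fell in TAM CM (median 0.72), 5 rose and 3 fell in M1 CM (median 0.21), and 3 rose and 4 fell in M2 CM (median -0.01). The export pumps Abcc1 and Abcc4 rose in TAM CM, Abcc1 from 360.3 ± 9.57 to 786 ± 50.7 CPM and Abcc4 from 26.9 ± 0.967 to 76.4 ± 5.52. Glutathione transferases moved both ways: Gstp1 rose from 139.8 ± 5.91 to 251 ± 11.4 CPM and Gstm2 fell from 27.5 ± 0.397 to 12.5 ± 1.17, in families whose near-identical copies can split reads. Slc7a11, the cystine importer that feeds glutathione synthesis, was picked out after its values had been seen. It stood at 725 ± 28.6 CPM in TAM CM, 278 ± 27.3 in M1 CM, 23.5 ± 3.58 in M0 CM and 38 ± 4.65 in M2 CM (edgeR log2 fold change 4.94, SE 0.12, adjusted p = 3.43e-10 for TAM CM against M0 CM).

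A list of 4 further targets held the thioredoxin gene Txn1, the peroxiredoxin genes Prdx1 and Prdx6, and Osgin1. Of these, 3 rose and 0 fell in TAM CM (median 0.86), Txn1 not being called. In M1 CM 3 rose and 1 fell (median 0.37), and in M2 CM 1 rose and 1 fell (median -0.00). Prdx6 rose from 231 ± 6.44 to 653 ± 42.3 CPM and Prdx1 from 676 ± 10.2 to 1127 ± 86.1, and Osgin1 rose from 14.6 ± 1.18 to 29 ± 2.55 CPM in TAM CM and fell to 9.26 ± 1.28 CPM in M1 CM. Of 6 genes that supply NADPH, 3 rose and 2 fell in TAM CM (median 0.06), 2 rose and 2 fell in M1 CM (median 0.07), and 0 rose and 1 fell in M2 CM (median -0.06). G6pdx, which opens the pentose phosphate pathway, rose from 207 ± 3.30 to 335 ± 19.2 CPM and the isocitrate dehydrogenase gene Idh1 fell from 119 ± 2.98 to 28.4 ± 0.373. With so few genes in the NADPH list, its counts in TAM CM and M1 CM are near the shares over all genes.

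Of 9 tested genes of detoxification 1 rose and 6 fell in TAM CM, with a median of -0.50. In M1 CM 2 rose and 2 fell (median -0.06), and in M2 CM 1 rose and 4 fell (median -0.22). Ephx1, an epoxide hydrolase, fell from 95 ± 2.42 to 29 ± 1.64 CPM (edgeR adjusted p = 4.55e-33) and Ugdh from 117 ± 6.02 to 64.8 ± 2.45. Of 11 tested genes of heme and iron handling 7 rose and 3 fell in TAM CM (median 0.51), 5 rose and 3 fell in M1 CM (median 0.16), and 0 rose and 2 fell in M2 CM (median -0.10). The ferritin heavy chain gene Fth1, which stores iron released from heme, rose from 2435 ± 112 to 4108 ± 143 CPM, and the heme transporter gene Slc48a1 from 179 ± 9.25 to 419 ± 31.6. Fech, whose enzyme inserts iron into protoporphyrin to form heme, fell from 98.1 ± 4.57 to 64.9 ± 2.54 CPM. Alad, another heme synthesis gene, rose from 60.6 ± 3.43 to 91.1 ± 3.56 CPM.

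**Figure D4:**
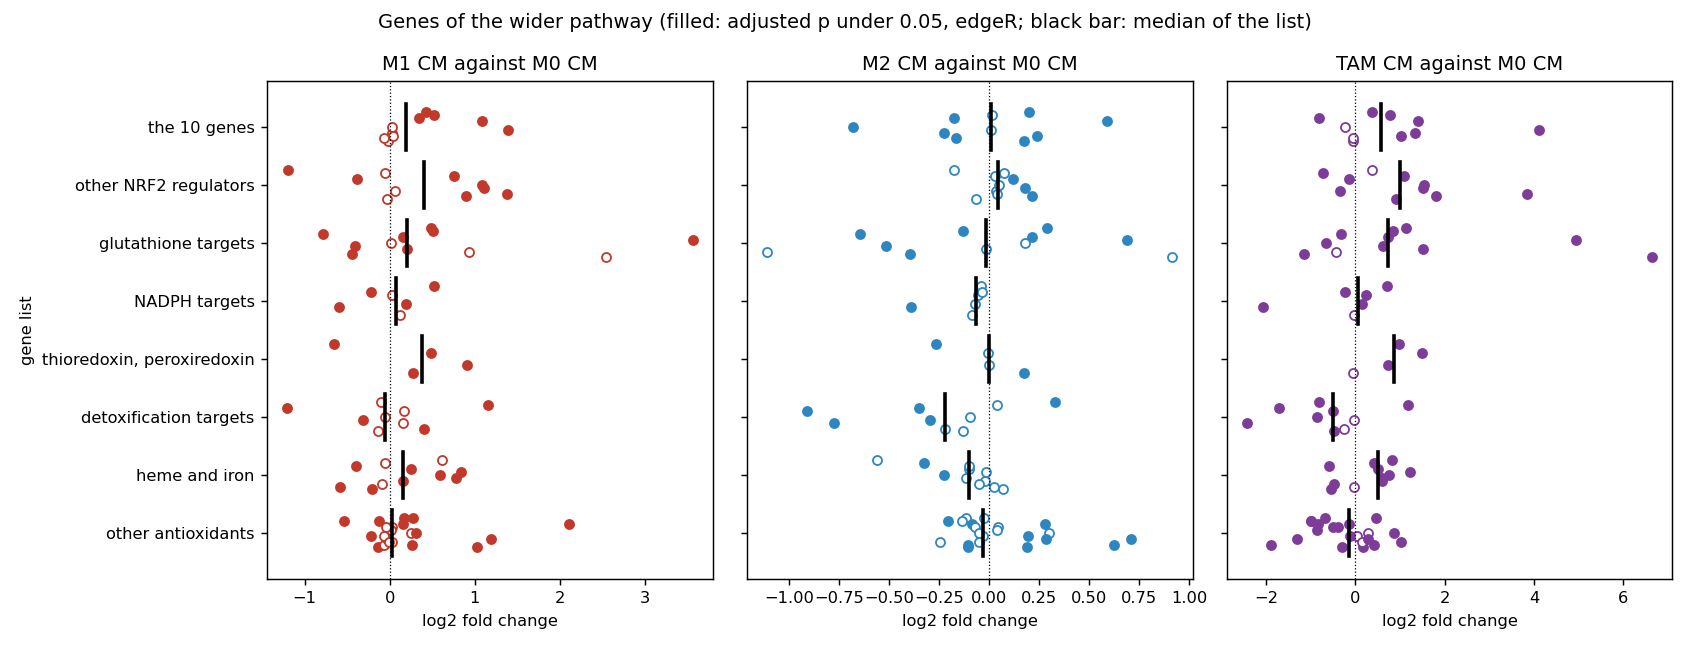
Log2 fold change against M0 CM of the tested genes of the pathway lists, with each comparison in a panel that has its own horizontal axis, filled points for an edgeR adjusted p under 0.05 and a black bar for the median of the list. In TAM CM the partners and regulators have a median of 1.01 and the detoxification genes a median of -0.50.

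The genes whose level followed Hmox1 most closely were named by Pearson's r of log2 CPM over the 12 libraries, among tested genes with a mean of at least 2 CPM in some group and leaving out Gm and Rik gene models. This is a description, since the libraries fall into 4 groups. Sqstm1, the autophagy receptor p62 that binds KEAP1, had an r of 0.9993 and stood at 5065 ± 287 CPM in TAM CM, 914 ± 59.1 in M1 CM, 352 ± 5.31 in M0 CM and 361 ± 8.18 in M2 CM. Prdx6 (0.9992), Ypel5 (0.9969), Kdm4a (0.9965) and Acot2 (0.9962) followed. Among the members r with Hmox1 was 0.958 for Gclc, 0.933 for Srxn1, 0.886 for Txnrd1, 0.853 for Gclm and 0.660 for Bach1. It was 0.169 for Nfe2l2, 0.151 for Nqo1, -0.587 for Gsr and -0.689 for Keap1.

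**Figure D5:**
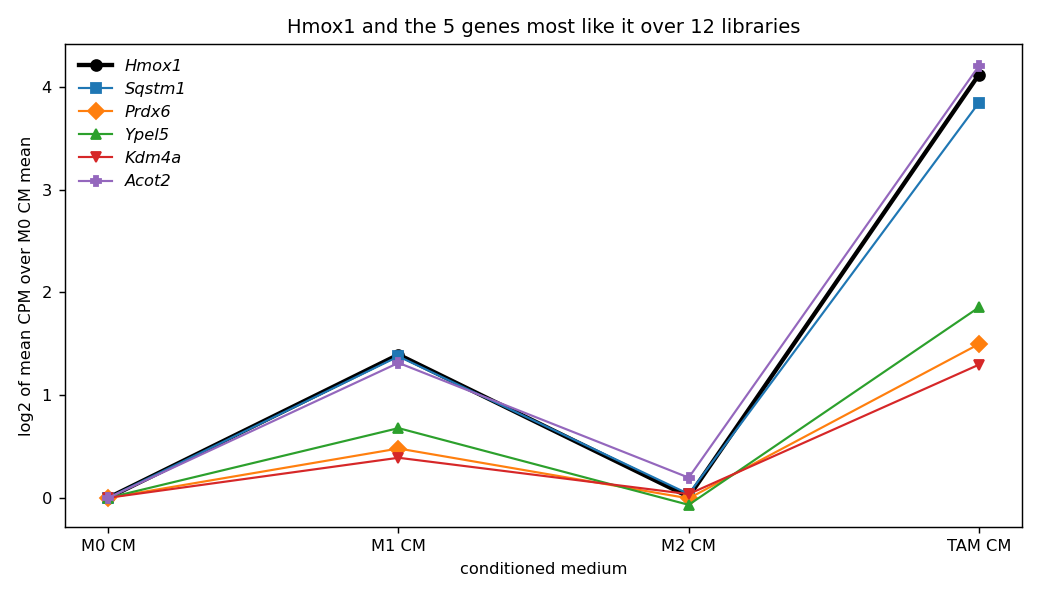
Log2 of the mean CPM in each medium over the mean in M0 CM for Hmox1 and the 5 genes most like it, with a line joining the means of each gene. In every gene drawn the TAM CM mean is the highest and the M1 CM mean comes next.

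In the mm10 annotation Hmox1 (ENSMUSG00000005413) on the plus strand of chromosome 8 at 75093621-75100589, Nqo1 (ENSMUSG00000003849) on the minus strand of chromosome 8 at 107388225-107403206 and Gsr (ENSMUSG00000031584) on the plus strand of chromosome 8 at 33652523-33698163 share a chromosome. The others are Gclc (ENSMUSG00000032350) on the plus strand of chromosome 9 at 77754535-77794485, Keap1 (ENSMUSG00000003308) on the minus strand of chromosome 9 at 21229730-21239361, Nfe2l2 (ENSMUSG00000015839) on the minus strand of chromosome 2 at 75675513-75704641, Srxn1 (ENSMUSG00000032802) on the plus strand of chromosome 2 at 152105516-152111376, Gclm (ENSMUSG00000028124) on the plus strand of chromosome 3 at 122245557-122270732, Txnrd1 (ENSMUSG00000020250) on the plus strand of chromosome 10 at 82833951-82897712 and Bach1 (ENSMUSG00000025612) on the plus strand of chromosome 16 at 87698945-87733346.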

How the data were processed

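SCC7 RNA was isolated with Trizol and sequenced as 12 mRNA libraries, per the labels' protocols, and the authors deposited whole-number read counts per gene. Per the submitters' processing notes, HISAT2 2.0 and build mm10 were used. For the counting tool, the annotation release and strand, nothing is given in the sources used here. Symbols, positions and exon lengths came from GENCODE M21, which matched 55141 of 55487 genes. Groups came from the sample titles.

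The counts were filtered, scaled by TMM and fitted with edgeR 4.0.16 (R 4.3.3) using a robust quasi-likelihood model with a mean for each of 4 groups. All 6 pairs of groups were tested over 14509 genes, and the genes left out held 0.0815% of counts. SE is the log2 fold change divided by the square root of F. Alternatives were unscaled library sizes, DESeq2 1.42.0, other filters, a replicate block, fits of 2 groups and leaving out each library. The members and lists were chosen with earlier results of these data known. From each pathway list at most 4 genes were named by the smallest p over the 6 comparisons, and 5 genes by likeness to Hmox1. Slc7a11, Duox1 and the cell type markers were named outside this rule. Log2 CPM used a prior count of 2. Libraries of a group differed by 1.97 to 4.82 times the chi-square expected from counting alone, and no pair was identical.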

Additional observations from a re-analysis of the deposited data

How the results depend on the processing

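Over 60 fold changes of members and their alternatives, 742 of 780 values kept their direction and their side of the threshold, 3 lost a call and 14 gained 1. Another 21 changed sign, 0 of them with a call in either fit. The number of members called lower in TAM CM against M0 CM was 1, and it became 4 with unscaled library sizes, 2 with DESeq2 and 2 with the replicate block, and ran from 1 to 2 when a library was left out. The number lower in TAM CM against M1 CM was 1. It became 2 with unscaled library sizes, the stricter filter, DESeq2, the replicate block or the 2 groups alone, and ran from 1 to 2 when a library was left out. In M1 CM against M0 CM it went from 0 to 1 with unscaled library sizes. Nqo1 was the gene added in the TAM CM comparisons, joined by Gsr and Nfe2l2 with unscaled sizes against M0 CM. With the replicate block the edgeR adjusted p of Nqo1 was 2.06e-06 against M0 CM and 3.61e-07 against M1 CM.

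With unscaled library sizes the log2 fold change against M0 CM was -0.0413 for Nqo1, -0.0440 for Gclc and -0.0349 for Txnrd1 in M1 CM, and -0.0461 for Hmox1 and -0.0435 for Srxn1 in M2 CM. Nfe2l2 in TAM CM against M1 CM was then -0.0142. With the stricter filter Hmox1 was at -0.00598 and Srxn1 at -0.00327 in M2 CM against M0 CM. Leaving out a library gave, against M0 CM, -0.0352 to 0.0617 for Nqo1, -0.0120 to 0.0559 for Gclc and -0.0405 to 0.0152 for Gsr in M1 CM, and -0.0337 to 0.0559 for Hmox1 and -0.0188 to 0.0301 for Srxn1 in M2 CM. In TAM CM against M1 CM it gave -0.0763 to 0.00237 for Gsr, -0.0137 to 0.0331 for Nfe2l2 and -0.0834 to 0.00583 for Bach1. The cause was not tested.

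Unscaled sizes changed the split of all genes to 3219 higher and 4626 lower in M1 CM (4023 and 3719 in the scaled fit), to 2201 and 3653 in M2 CM (3042 and 2681) and to 4300 and 5891 in TAM CM (5089 and 5067), each against M0 CM. Hmox1 in TAM CM against M0 CM stayed between 4.02 and 4.20 under every alternative run. Samples share the numbers 1 to 3 in their titles, and the main fit did not pair them by number. Of 18 same-number pairs 0 had deviations correlated above 0.1 (-0.0289 to 0.0507). This check cannot decide whether the numbers pair the samples, since 10 of 12 libraries correlated best with their own number.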

Other observations

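Of 21 tested antioxidant genes outside the NRF2 lists 6 rose and 12 fell in TAM CM against M0 CM, with a median log2 fold change of -0.14, where 35.1% of all tested genes were called higher and 34.9% lower. Of the same list 8 rose and 4 fell in M1 CM (27.7% and 25.6% of all genes), with a median of 0.02, and 6 rose and 4 fell in M2 CM (21.0% and 18.5% of all genes), with a median of -0.03. Sod2, the mitochondrial superoxide dismutase, rose from 87 ± 1.59 to 375 ± 11.9 CPM in M1 CM and fell to 78.8 ± 1.59 CPM in TAM CM, and Prdx5 rose from 96.9 ± 2.62 to 196 ± 5.89 CPM in M1 CM and fell to 78.3 ± 2.95 CPM in TAM CM. Sod3, the extracellular form, fell from 85.4 ± 4.16 to 23 ± 0.57 CPM in TAM CM and Gpx1 from 203 ± 6.14 to 114 ± 2.01. Of 5 tested oxidant-producing enzymes, 2 rose and 2 fell in TAM CM (median -0.24), 3 rose and 1 fell in M1 CM (median 0.38), and 1 rose and 1 fell in M2 CM (median -0.19). Nox4, an NADPH oxidase, fell in TAM CM from 8.09 ± 1.46 to 5.30 ± 0.403 CPM, as did its relative Duox1, which also fell in M1 CM. Nos2, the inducible nitric oxide synthase, rose from 6.74 ± 0.948 CPM in M0 CM to 875 ± 43 in M1 CM and stood at 12.1 ± 1.79 in TAM CM. Xdh, which encodes xanthine dehydrogenase, stood at 481 ± 16.6 CPM in TAM CM, 584 ± 21.1 in M1 CM, 189.7 ± 10.7 in M0 CM and 370.4 ± 7.92 in M2 CM, and rose in all 3 media against M0 CM.

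In 31 of 40 combinations of a member and a group, the library numbered 2 was the lowest of its group. The same count was not made over all tested genes, so whether this is particular to the members cannot be told. For Nqo1 the library numbered 2 was the lowest in every group. The part of that library number in the results was not tested, beyond the leave-out fits and the fits with a replicate block above.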
